A study of Mus musculus with 63 samples.

Results

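Germline, piRNA and meiosis genes were followed by name in polyadenylated RNA of the mouse embryonic stem cell line R1, both as stem cells and after differentiation to neural progenitors (NPCs). The list held 40 genes, and all 40 were found among the 24990 rows of each expression table. By role, the list comprised piRNA and nuage factors, proteins of the synaptonemal complex and chromosome axis, meiotic cohesin subunits, recombination factors, germ cell regulators and a few other germline genes. The study's question was the regulation of Eomes by Meteor, a locus that makes a long non-coding RNA, and its 63 libraries formed 21 groups of 3. The genotype series held a pair of wild-type lines (WT1 and WT2), a pair of lines with a knockout of the Meteor promoter (pKO1 and pKO2) and 1 line with that promoter inverted (pInv). Each of these was grown in 2i medium, in serum medium and as NPCs. The perturbation series held cells with an empty vector (Ctrl) and a pair of CRISPR/dCas9 knockdowns of Meteor (KD1 and KD2), in serum and as NPCs. The sample labels name dCas9 for these, and the series' design text names Cas9. All groups derive from the R1 line. The labels do not say whether each edited line is a single clone, nor whether the 3 libraries of a group were separate cultures, so the p-values measure the spread between these libraries, which may be technical.

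The 2i medium held the MEK inhibitor PD0325901 at 1 µM, the GSK3 inhibitor CHIR99021 at 3 µM and LIF at 10 ng/ml, whereas the other medium contained fetal calf serum (15%) and the same 10 ng/ml of LIF. Both kinds of stem cell grew on mouse embryonic fibroblast feeders. NPCs were collected after 4 days in differentiation medium, from cells first passaged in serum without feeders, per the labels of every NPC library except Ctrl replicate 3, whose labels give no growth protocol. Total counts per library ran from 7566629 to 18553323. The summed level of 6 stem cell markers was 4020 to 5270 CPM (the count scaled to the library's total) in WT cells in 2i, 1573 to 2197 in serum and 418 to 763 in NPCs, whereas 6 neural progenitor markers summed to 39.4 to 68.6, 30.9 to 55.0 and 146 to 469 CPM. NPCs therefore still held RNA of stem cell markers, in the perturbation series more (1080 to 1337 CPM) than in WT. Markers of feeder fibroblasts summed to 641 to 1300 CPM in WT cells in 2i, 1183 to 2477 in serum and 76.9 to 158 in NPCs, and markers of macrophages to 30.0 to 119, 170 to 392 and 3.92 to 8.14. Platr11, the transcript counted at the Meteor locus, was at 6.09 to 26.9 CPM across the WT stem cell libraries and at no more than 0.249 CPM in any pKO stem cell library.

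In the germline, piRNAs loaded on PIWI proteins silence transposons, with Tudor-domain proteins and helicases assembling the machinery in perinuclear granules called nuage. Meiosis then needs a dedicated cohesin, an axis of HORMA-domain proteins, the synaptonemal complex that joins homologous chromosomes, and recombinases that repair programmed breaks. Many of these genes have CpG-rich promoters that are methylated or bound by repressive complexes in somatic cells, and naive embryonic stem cells, whose DNA is less methylated, are known to transcribe part of the set.

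The promoters of 3 members are shown, picked from these same data. Of the members with a promoter, they had the smallest p between serum and 2i in WT cells (edgeR's quasi-likelihood test). All 3 were lower in serum. They are the RefSeq sequences (GRCm38.p6) from 250 bases before to 50 bases after the annotated start, written 5′ to 3′ on the strand of the gene. Capitals mark CACGTG, the E-box bound by MAX with its partner MGA, and TCCCGC on either strand, the core of the sequence bound by E2F6. Dazl lies at chr17:50293571-50293870 on the minus strand, Stag3 at chr5:138280259-138280558 on the plus strand and Hsf2bp at chr17:32034459-32034758 on the minus strand.
Dazl: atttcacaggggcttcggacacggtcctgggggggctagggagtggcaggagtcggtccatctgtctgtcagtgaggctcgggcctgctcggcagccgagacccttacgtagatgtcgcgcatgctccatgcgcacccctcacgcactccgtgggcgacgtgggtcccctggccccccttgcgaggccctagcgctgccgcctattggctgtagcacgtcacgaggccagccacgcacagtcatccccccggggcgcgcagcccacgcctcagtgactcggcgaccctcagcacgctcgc
Stag3: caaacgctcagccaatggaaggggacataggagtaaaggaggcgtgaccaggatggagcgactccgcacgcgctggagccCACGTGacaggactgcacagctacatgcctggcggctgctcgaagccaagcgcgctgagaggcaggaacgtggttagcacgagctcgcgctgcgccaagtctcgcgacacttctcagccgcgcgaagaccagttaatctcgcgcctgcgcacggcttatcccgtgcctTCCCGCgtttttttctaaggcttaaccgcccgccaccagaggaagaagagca
Hsf2bp: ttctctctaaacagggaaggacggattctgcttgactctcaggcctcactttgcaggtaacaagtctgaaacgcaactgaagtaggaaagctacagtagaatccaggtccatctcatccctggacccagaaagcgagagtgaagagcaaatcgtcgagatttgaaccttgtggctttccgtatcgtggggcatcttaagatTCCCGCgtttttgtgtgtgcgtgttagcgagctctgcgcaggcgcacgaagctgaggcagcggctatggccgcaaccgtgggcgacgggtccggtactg
The windows held 28, 30 and 20 CpG dinucleotides in that order, or 0.795, 1.06 and 0.934 of the number their base composition gives. Stag3 had 1 match to each motif, Hsf2bp had 1 TCCCGC, and Dazl had no match in this window. A promoter was found for 36 of the 40 members. CACGTG was present in 13 of these 36 genes (36.11%), against 8.095% of all 27018 genes with a promoter in the table, and TCCCGC in 16 (44.44%) against 22.05%. The median ratio of observed to expected CpG was 0.713 over the members' 45 windows and 0.384 over all 32841 windows. These are counts of letters, with no measurement of binding or methylation in the series.

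Levels of different genes were compared by the authors' TPM values, which are scaled by transcript length. In WT cells the members' TPM summed to 469.2 in 2i, 269.3 in serum and 298.7 in NPCs, as a mean of 6 libraries. At least 1 TPM was reached by 30 members in 2i, 22 in serum and 25 in NPCs. Of the 40 members, 22 had their highest WT mean in 2i, 11 in NPCs and 7 in serum. In 2i the highest were Tex19.1, a germline factor that restrains retrotransposons, at 93.1 TPM, Syce2, of the central element of the synaptonemal complex, at 81.6, Dazl, an RNA-binding protein needed for germ cell development, at 45, and Hsf2bp, a meiotic partner of BRCA2, at 38.6. In serum and in NPCs Syce2 led, at 94.5 and 120 TPM. At the other end, Spo11, the enzyme that makes meiotic breaks, had 17 counts in all 63 libraries. Tdrd6, Tdrd9, Tex101, Sycp1, Sycp2, Piwil1, Piwil4 and Msh4 also stayed under 1 TPM in WT cells in every state. Msh4 had 270 and Piwil4 319 counts over all 63 libraries, so their changes given below rest on few counts.

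**Figure D1:**
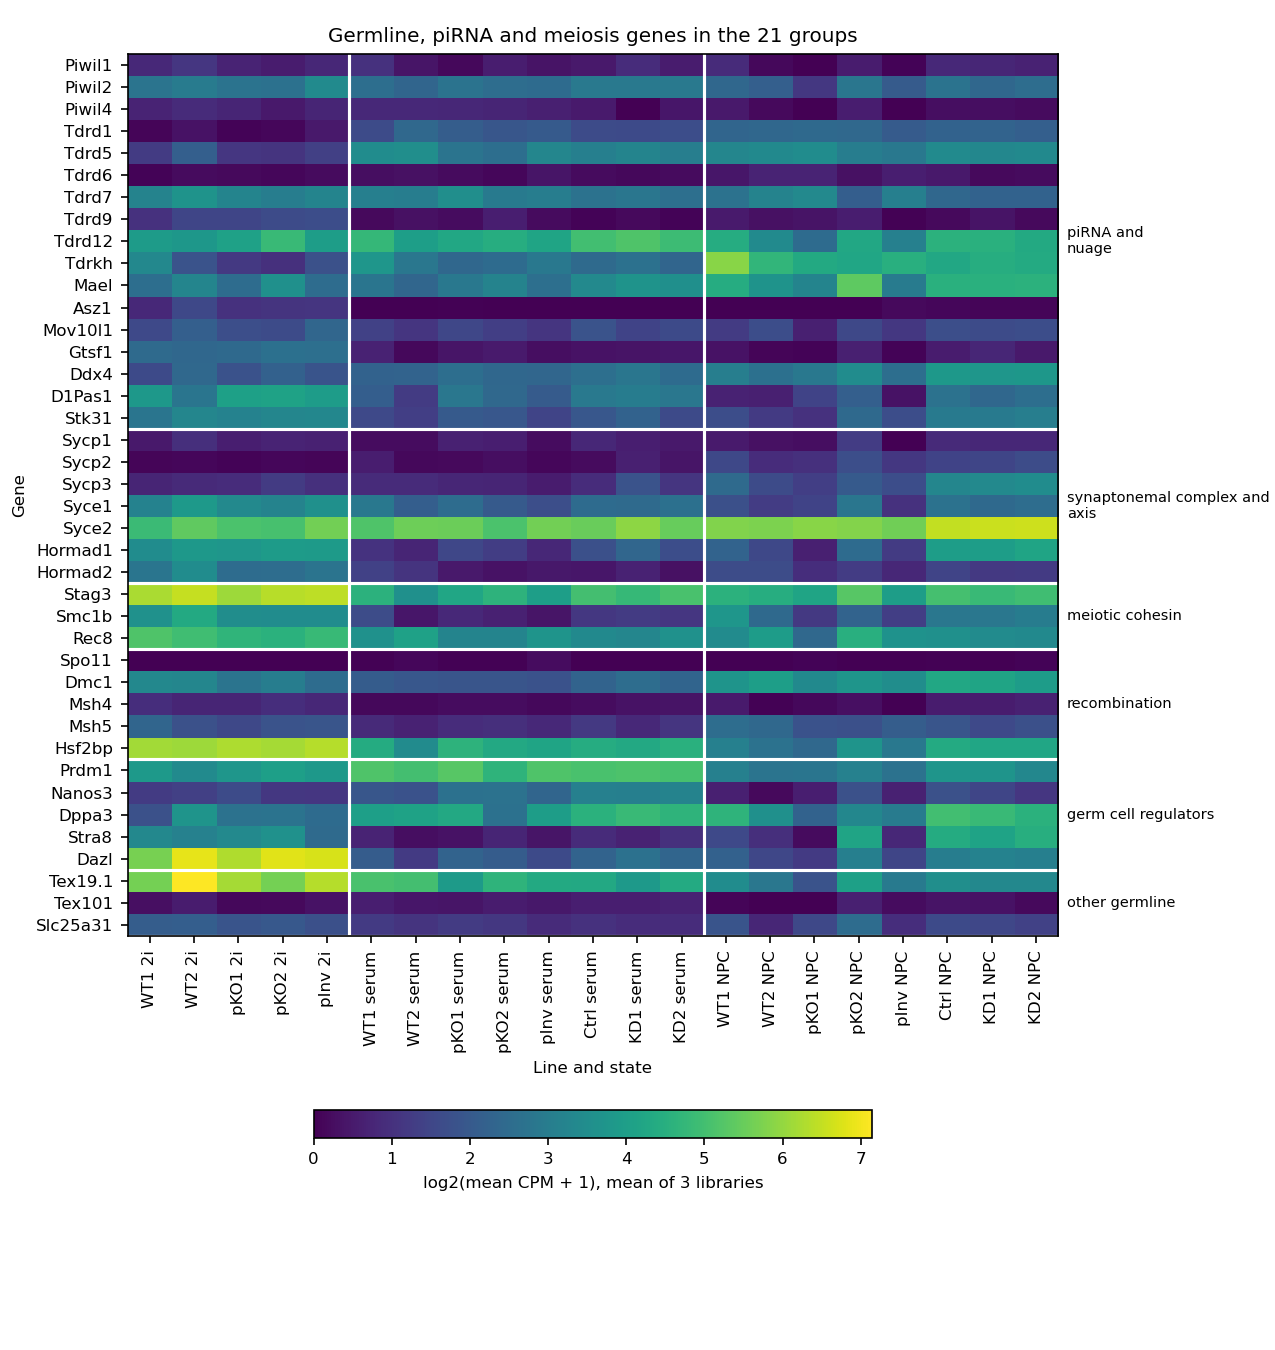
Mean level of each of the 40 members in the 21 groups, as log2(mean CPM + 1) over 3 libraries (colour), with genes in rows by role and lines in columns by state. Columns in 2i are brightest for Dazl, Stag3, Hsf2bp and Tex19.1, and Spo11 is dark throughout.

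Serum against 2i was the comparison in which most members changed. In WT cells 26 of the 36 members that could be tested passed an adjusted p of 0.05 (edgeR quasi-likelihood test, Benjamini-Hochberg over 15145 genes), 20 lower and 6 higher in serum. Across all genes tested, percent called was 59, with 29.5% lower and 29.5% higher. The members' median log2 fold change was −1.26, and that of all genes was 0.00. The 4 members under the count filter were Tdrd6, Sycp1, Spo11 and Tex101. In CPM, 17 members had all 6 serum libraries below all 6 libraries in 2i, 5 had them above, and 14 overlapped. The share of all genes that separated in this way was not computed, so these counts have no background.

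Among germ cell regulators, Dazl stood out. In 2i its libraries lay at 27.8, 55.8 and 67.1 CPM in WT1 and 86.3, 136 and 126 in WT2, and in serum at 2.82, 3.72 and 3.11 in WT1 and 1.92, 1.07 and 0.992 in WT2. The groups were far apart, and Dazl fell by 5.22 ± 0.28 (SE) on the log2 scale (adjusted p = 4.58e-11). Stra8, which licenses entry into meiosis, ranged from 3.58 to 12.2 CPM in 2i (median 9.64) and from 0.0895 to 1.01 in serum (median 0.324), a log2 change of −4.54 ± 0.52 (adjusted p = 6.18e-07). The other regulators went the opposite way. Prdm1, a repressor that specifies germ cells, rose from a median of 10.8 CPM (8.37 to 15.7) to 32.7 (25.7 to 40.3), by 1.51 ± 0.20. Dppa3, which protects maternal methylation in the zygote, rose by 1.53 ± 0.25, but in 2i its lines differed, with 1.88, 3.53 and 1.85 CPM in WT1 against 12.3, 11.7 and 11.9 in WT2, and with WT2 alone the call was lost. Nanos3, an RNA-binding protein that keeps germ cells alive, rose by 0.82 ± 0.33 (adjusted p = 0.0395), a call lost in 11 of 12 fits that left out 1 WT library.

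All 3 meiotic cohesin genes fell. Stag3 ranged from 70.4 to 92 CPM in 2i (median 86.0) and from 7.97 to 28.7 in serum (median 16.5), with no overlap and a log2 change of −2.40 ± 0.18 (adjusted p = 2.38e-09). Smc1b fell from a median of 14.4 to 0.988 CPM (−4.11 ± 0.36), and Rec8, the cleavable kleisin subunit, from 30.1 to 13.2 CPM (−1.32 ± 0.20). All 4 recombination genes that could be tested fell as well. Hsf2bp had 63.9 to 75.7 CPM in 2i and 8.68 to 20.9 in serum (−2.31 ± 0.17), Msh4 and Msh5, which stabilise recombination intermediates, changed by −2.74 ± 0.58 and −2.17 ± 0.34, and Dmc1, the meiotic recombinase, by −1.58 ± 0.22. On the chromosome axis, Hormad1 fell from a median of 11.6 to 0.932 CPM (−3.79 ± 0.47) and Hormad2 from 7.43 to 1.29 (−2.55 ± 0.27). Of the synaptonemal complex, Syce1 fell by 1.20 ± 0.27 on the log2 scale (−0.40 with WT1 alone, adjusted p = 0.403), while Syce2 had a median of 33.5 CPM in 2i and 39.5 in serum and did not pass.

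The piRNA and nuage genes divided, with 6 lower, 3 higher and 7 of 16 not passing. Asz1, a mitochondrial-surface scaffold of piRNA processing, had 0.358 to 2.71 CPM in 2i and was listed at 0 in all 6 serum libraries. Set against 3 counts over those 6 libraries, Asz1 was at least 32.6-fold higher in 2i. Gtsf1, a cofactor of PIWI proteins, fell from a median of 4.31 to 0.336 CPM (−4.00 ± 0.51), and Tdrd9, a Tudor-domain helicase, from 1.22 to 0.203 (−2.81 ± 0.60). D1Pas1 (−2.06 ± 0.33), Stk31 (−2.05 ± 0.34) and the helicase Mov10l1 (−0.96 ± 0.37) were the other piRNA and nuage members that fell. The call of Mov10l1 was lost in 7 of 12 fits without 1 library and with WT1 alone (−0.34, adjusted p = 0.622). Against these, Tdrd1 was nearly absent in 2i, at no more than 0.310 CPM, and lay at 1.74 to 4.83 CPM in serum (4.20 ± 0.39, adjusted p = 5.11e-08). Tdrd5 rose from a median of 2.35 to 8.45 CPM (2.21 ± 0.24). Both encode Tudor-domain scaffolds of nuage. Tdrkh, a Tudor-domain partner of PIWI proteins in piRNA trimming, rose by 0.81 ± 0.22, with overlapping libraries (1.86 to 12.1 against 3.32 to 14.4 CPM), and missed the threshold with WT1 alone (0.40, adjusted p = 0.282). Tex19.1 fell by 1.39 ± 0.16 and Slc25a31, a germ cell ADP/ATP carrier, by 1.51 ± 0.40, the latter with an adjusted p of 0.052 with WT1 alone.

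Related genes outside the list were also read. Of 7 other piRNA genes that could be tested, 6 fell and 0 rose, among them Fkbp6 (−5.04 ± 0.33) and Gpat2 (−4.30 ± 0.18), both factors of piRNA biogenesis. Of 16 other meiosis genes, 7 fell and 1 rose, and of 7 other germ cell genes 5 fell and 1 rose. Among 19 genes listed as repressors of germline genes, a list that also held the oxidases Tet1 and Tet2, 7 rose and 8 fell. Dnmt3b, a de novo DNA methyltransferase, rose by 3.09 ± 0.13 and its cofactor Dnmt3l by 1.65 ± 0.15, whereas the oxidase Tet2 changed by −2.37 ± 0.12 and Dnmt1, the maintenance methyltransferase, by −0.73 ± 0.08. All of these passed the same test, over all genes. Feeder and macrophage markers moved with the medium too, since 7 of 11 and 6 of 6 rose in serum, and 5 of 6 stem cell markers fell. The part of these other cells in the members' changes was not tested. In bulk RNA, fewer cells of a type and less RNA per cell cannot be told apart.

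**Figure D2:**
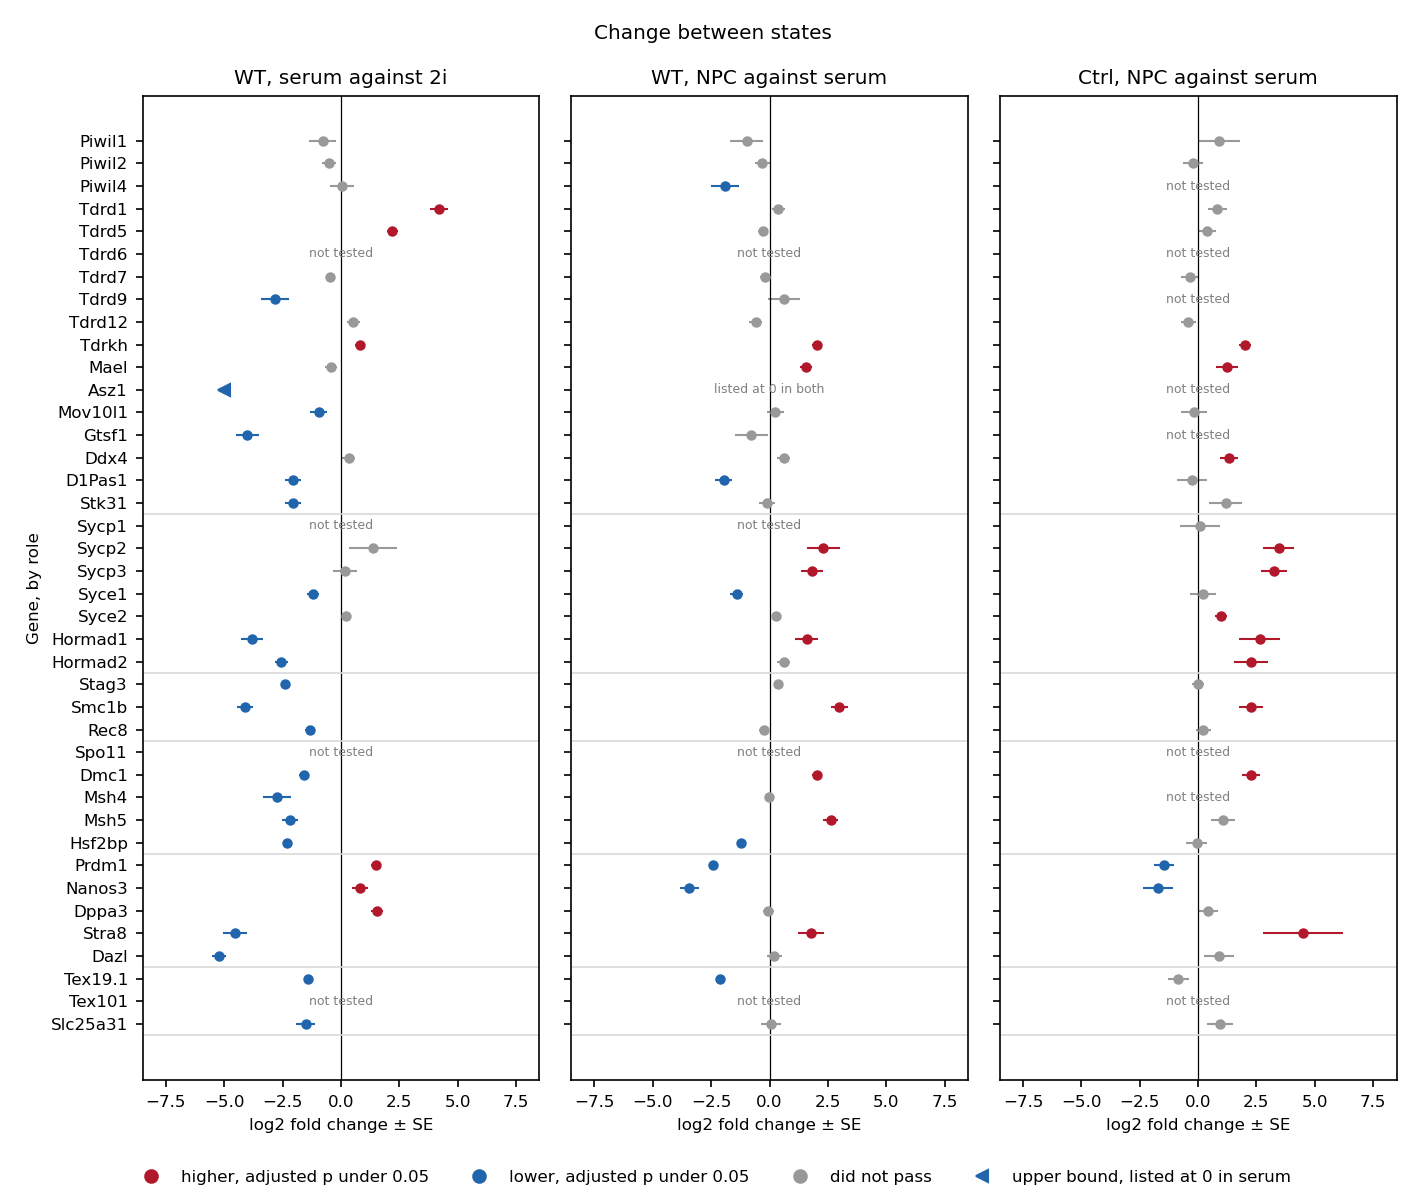
Log2 fold change (points) with SE (bars) of each member between states, by role from top to bottom, for WT serum against 2i, WT NPCs against serum and Ctrl NPCs against serum. Red and blue points passed an adjusted p of 0.05, and the triangle for Asz1 is an upper bound. Most members lie left of 0 in the first panel, with Tdrd1 at 4.20 on the right, and lie on both sides in the second.

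From serum to NPCs, WT cells changed 16 of 36 members (44.4%), 9 upwards and 7 downwards. That share was below the 66.3% called over all genes (32 higher and 34.3 lower). The median log2 change was 0.03, against −0.02 for all genes. Most of the 9 members that rose were meiotic genes. Smc1b went from 0.248 to 3.03 CPM in serum to 3.72 to 23.9 in NPCs (2.99 ± 0.37, adjusted p = 1.17e-06), Msh5 from 0.358 to 1.09 to 3.93 to 5.35 (2.62 ± 0.33), and Dmc1 from 2.48 to 4.29 to 11.3 to 17.4 (2.05 ± 0.22). None of these 3 overlapped between the states. Sycp2 (2.31 ± 0.71) and Sycp3 (1.81 ± 0.48), which form the lateral elements of the synaptonemal complex, and Hormad1 (1.59 ± 0.48) also rose. Sycp2 was scarce, at 0 to 0.949 CPM in serum and 0.143 to 3.17 in NPCs. Its call was lost with either WT line alone (adjusted p = 0.0747 and 0.05), and its change was 4.14 without WT2 serum replicate 1. With WT2 alone Sycp3 was at 1.26 and Hormad1 at 1.39 (adjusted p = 0.13 and 0.113). Stra8 rose by 1.77 ± 0.56 to 0.377 to 2.79 CPM in NPCs, and missed the threshold with either WT line alone (adjusted p = 0.0605 and 0.0691).

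Tdrkh and Mael carried the rise among piRNA genes. In NPCs Tdrkh reached 49.5, 58.9 and 64.1 CPM in WT1 and 25.0, 24.5 and 25.8 in WT2, against 3.32 to 14.4 in serum (2.03 ± 0.21, adjusted p = 1.51e-07). Mael, a nuage protein needed for transposon silencing, went from a median of 4.84 to 14.2 CPM (1.57 ± 0.27). Germ cell regulators were among the 7 that fell. Nanos3 fell from 2.40 to 3.03 CPM to at most 0.642 (−3.44 ± 0.41), Prdm1 from a median of 32.7 to 6.59 CPM (−2.40 ± 0.21) and Tex19.1 from 32.2 to 7.79 (−2.12 ± 0.17). D1Pas1, Piwil4, Syce1 and Hsf2bp made up the rest, with changes from −1.97 to −1.22, and Piwil4 was lost with WT1 alone (−1.01, adjusted p = 0.279). Of 16 other meiosis genes 9 rose and 2 fell, with Mnd1 and Psmc3ip, a complex that assists DMC1, at 1.53 ± 0.17 and 1.05 ± 0.13. All 11 feeder and all 6 macrophage markers fell between these states, as did all 6 stem cell markers.

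The Ctrl cells of the perturbation series made the same change of state in libraries that share none with WT. There 13 of 32 members passed, 11 higher and 2 lower in NPCs, where percent called was 54.4 (27.2 higher and 27.2 lower) and the members' median log2 change was 0.85. Dmc1 (2.27 ± 0.37), Smc1b (2.27 ± 0.52), Sycp2 (3.45 ± 0.66), Sycp3 (3.26 ± 0.54), Tdrkh (2.01 ± 0.27) and Mael (1.25 ± 0.47) rose, and Nanos3 (−1.71 ± 0.64) and Prdm1 (−1.46 ± 0.43) fell. Ddx4, the germ cell helicase VASA, rose by 1.33 ± 0.39, Syce2 by 0.99 ± 0.24 and Hormad2 by 2.27 ± 0.73. Hormad1 (2.63 ± 0.88) and Stra8 (4.51 ± 1.71) were the other members that rose. The calls of Stra8 and Mael were each lost in 5 of 6 fits that left out 1 Ctrl library, that of Nanos3 in 3, that of Hormad1 in 2 and that of Hormad2 in 1. In WT, Ddx4 had a median of 3.80 CPM in serum and 5.96 in NPCs and did not pass.

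The NPC libraries of the perturbation series were not alike by replicate number. Stra8 lay at 0.268, 41.0 and 18.6 CPM in replicates 1, 2 and 3 of Ctrl, at 0, 36.3 and 13.8 in KD1, and at 0.102, 42.3 and 22 in KD2. Hormad1 lay at 3.69, 21.5 and 19.3 in Ctrl, at 2.36, 23.3 and 18.2 in KD1, and at 3.38, 20.4 and 27.0 in KD2. Dazl lay at 2.15, 9.68 and 9.80 in Ctrl, 2.75, 13.7 and 7.46 in KD1 and 2.46, 10.5 and 9.24 in KD2, and Mael, Hsf2bp, Stk31, Syce1 and D1Pas1 were also lowest in replicate 1 of all 3 lines. Dmc1, at 16.9, 16.4 and 21.8 CPM in Ctrl, was not. The summed stem cell markers were alike across the numbers, at 1080 to 1283 CPM in the 3 libraries numbered 1 and 1087 to 1337 in the other 6. Markers of 2-cell-like cells, a rare stem cell state, summed to 2.28 to 3.55 CPM in the libraries numbered 1, 134 to 163 in those numbered 2 and 28.4 to 48.8 in those numbered 3, and their part in the members' values was not tested. Without the 3 NPC libraries numbered 1, a choice made after the values were seen, 18 members passed between Ctrl NPCs and serum, 16 higher and 2 lower, where percent called was 54.4.

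No member passed the test between Meteor knockdown and Ctrl. Platr11 was at 13.1 to 23.9 CPM in Ctrl in serum and at 0.497 to 4.10 in the KD libraries, and at 8.31 to 20.5 against 0.922 to 3.37 in NPCs. Platr11 changed by −3.39 ± 0.45 and −2.85 ± 0.34, with adjusted p = 0.18 and 0.138. In serum 0 of 28 members and in NPCs 0 of 32 passed in edgeR, and percent called over all genes was 0 in both states. At an unadjusted p under 0.05 the counts were 0 and 0, with no count over all genes at that cut. DESeq2 called 0 and 0 members, and 1 and 2 over all genes. A block for the replicate number, which pairs these libraries, gave 0 and 0 (percent called 0.00733 and 0.0149). Without the NPC libraries numbered 1 the count in NPCs was 0 (percent called 0.00741). The members' log2 fold changes ran from −0.45 to 0.91 in serum and from −0.63 to 0.23 in NPCs. These limits are not equally tight. Stra8 in NPCs had a log2 difference of −0.02 ± 1.42 and Dazl of 0.14 ± 0.62, each line holding 1 low library, whereas that of Tdrkh was 0.15 ± 0.14. All 28 and all 32 tested members had overlapping Ctrl and KD libraries, a count not made over all genes.

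**Figure D3:**
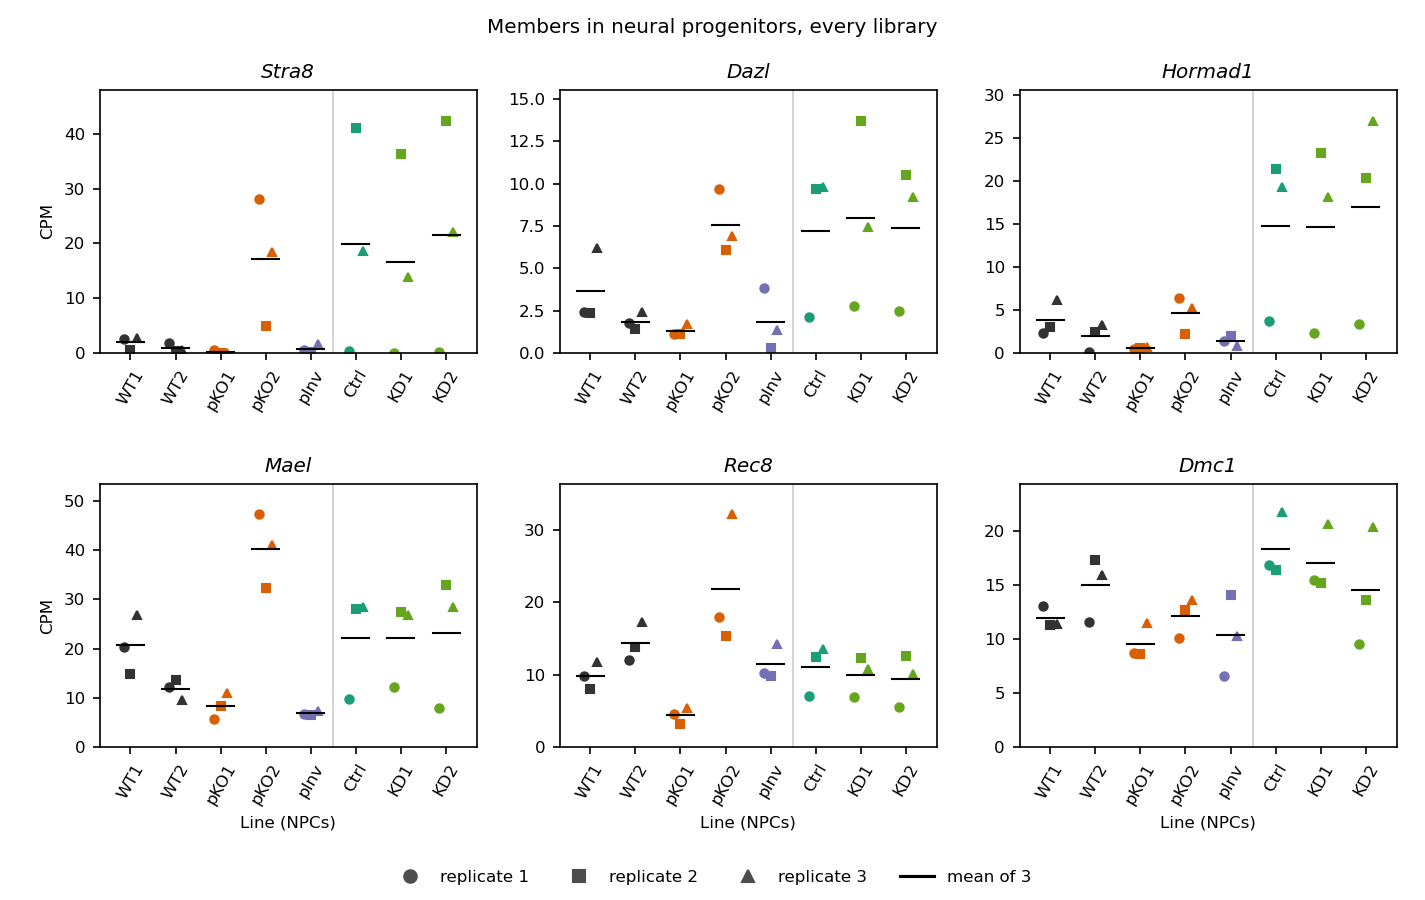
CPM of 6 members in every NPC library, by line, with a symbol for the replicate number and a bar for the mean of 3. Replicate 1 of Ctrl, KD1 and KD2 sits near 0 for Stra8, at 0 to 0.268 CPM, and pKO2 lies above pKO1 for Stra8, Dazl, Hormad1, Mael and Rec8.

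Removal of the Meteor promoter was compared with WT as the mean of the 2 pKO lines against the mean of the 2 WT lines. In 2i, 6 of 34 members passed (1 higher, 5 lower, where percent called over all genes was 9.06, with 3.29 higher and 5.77 lower), in serum 7 of 30 (4 higher, 3 lower, against 5.95, with 1.77 higher and 4.18 lower) and in NPCs 6 of 31 (3 higher, 3 lower, against 8.05, with 3.45 higher and 4.6 lower). The members' median log2 changes were −0.06, 0.02 and 0.06. With the replicate number as a block, which pairs the libraries in 2i, 11 members passed there (percent called over all genes in that fit 20.9), Tdrd12, Smc1b, Dmc1, Prdm1 and Dazl being the additional ones. When the lines, not the libraries, served as replicates, 0 members passed in each of the 3 states. Over all genes that fit called 1 of 14923 in 2i, 15 of 15204 in serum and 0 of 15290 in NPCs. Nearly no gene passed in it, so its 0 is not particular to the members. The calls below therefore describe these 4 lines.

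Tdrkh and D1Pas1 passed in all 3 states. Tdrkh was at 5.28, 10.0 and 12.1 CPM in WT1 in 2i, 1.86, 3.69 and 2.17 in WT2, 0.585, 1.84 and 1.40 in pKO1, 0.746, 1.30 and 0.909 in pKO2, and 2.69, 1.96 and 2.55 in pInv. WT1 was the line that stood apart. The log2 difference of pKO from WT was −2.05 ± 0.28 in 2i, −0.93 ± 0.21 in serum and −1.01 ± 0.15 in NPCs. Against WT2 alone the change was −1.14 in 2i (adjusted p = 0.029), −0.45 in serum (adjusted p = 0.301) and −0.40 in NPCs (adjusted p = 0.214), so the call in serum and NPCs needed WT1. In all 3 states WT1 had the highest Tdrkh of the 5 lines.

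D1Pas1, an RNA helicase gene that descends from a copy of Ddx3x and may share reads with it, differed the other way. It was at 11.4, 16.1 and 11.7 CPM in WT1 in 2i, 5.20, 7.57 and 4.97 in WT2, 16.4, 17.6 and 13 in pKO1 and 19.3, 15.4 and 14 in pKO2. WT2 was the low line here, and WT1 overlapped with pKO. The changes were 0.89 ± 0.14 in 2i, 1.29 ± 0.28 in serum and 2.10 ± 0.50 in NPCs (adjusted p = 0.00263, 0.0142 and 0.0179), and against WT1 alone 0.31, 0.66 and 2.04 (adjusted p = 0.326, 0.425 and 0.104). In NPCs D1Pas1 also missed the threshold against WT2 alone (2.16, adjusted p = 0.0622) and with pKO1 alone (1.58, adjusted p = 0.11). In serum it missed with pKO2 alone (1.07, adjusted p = 0.0937). Its counts were not whole in 17.5% of libraries, so its level is uncertain.

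Tex19.1 fell in 2i (−0.44 ± 0.12) and in serum (−0.77 ± 0.13, adjusted p = 0.00501). In 2i it was at 47.3, 51.0 and 48.7 CPM in WT1 and 114, 141 and 166 in WT2. Of the pKO lines, pKO1 lay between, at 62.0, 67.8 and 83.9, and pKO2 was level with WT1, at 47.4, 49.9 and 51.7. The call in 2i thus needed WT2, and against WT1 alone the value turned to 0.31 (adjusted p = 0.275). In serum the order was plainer, with 27.8 to 36.5 CPM over 6 WT libraries and 13.3 to 27.6 over 6 pKO libraries. Hormad2 fell in 2i (−0.63 ± 0.14) and in serum (−1.98 ± 0.53), where it had 0.827 to 2.10 CPM in WT and 0 to 0.762 in pKO. The call was lost in 10 of 12 fits without 1 library for Hormad2 in serum and in 8 of 12 for Tex19.1 in 2i. Hormad2 in 2i was at −0.25 against WT1 alone (adjusted p = 0.43) and −1.01 against WT2 alone (adjusted p = 0.000683). Tex19.1 in serum passed against either WT line, and was at −1.19 with pKO1 alone (adjusted p = 0.0029) and −0.36 with pKO2 alone (adjusted p = 0.262). Tex19.1 has a close relative, Tex19.2, with which it may share reads. In serum pInv had 14.8, 18.2 and 24.6 CPM of Tex19.1 and 0.0868, 0.247 and 0.755 of Hormad2, as low as pKO against the same WT libraries, and neither passed for pInv (adjusted p = 0.219 and 0.897).

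Nanos3 was higher in pKO in serum (1.10 ± 0.25) and in NPCs (2.15 ± 0.61). Its serum libraries had 2.40 to 3.03 CPM in WT, 4.67, 5.05 and 6.40 in pKO1 and 9.37, 3.18 and 3.89 in pKO2, with no overlap. In NPCs it was 0 to 0.642 CPM in WT, 0.668, 0.588 and 0.259 in pKO1 and 1.98, 1.52 and 3.81 in pKO2, so that pKO2 alone was clear of WT. Against WT1 alone Nanos3 missed the threshold in both states (1.05 and 1.02, adjusted p = 0.133 and 0.455), as it did with pKO1 alone (1.04 and 1.01, adjusted p = 0.0642 and 0.433). Dazl (0.79 ± 0.20) and Hsf2bp (0.60 ± 0.15) were the other members higher in serum, and each call was lost in 7 of 12 fits that left out 1 library. Both needed WT2: against WT1 alone Dazl was at 0.18 and Hsf2bp at 0.11 (adjusted p = 0.783 and 0.83), and against WT2 alone at 1.41 and 1.09 (adjusted p = 0.00601 and 0.00418). Tdrd5 and Rec8 were lower in 2i, with log2 changes of −0.88 ± 0.22 and −0.42 ± 0.12, and Tdrd5 lost the call in 5 and Rec8 in 9 of 12 such fits. Against WT1 alone Tdrd5 was at −0.22 (adjusted p = 0.708) and against WT2 alone at −1.55 (adjusted p = 0.000738), while Rec8 missed the threshold against either line (adjusted p = 0.0545 and 0.182). Tdrd5 was also lost with pKO1 alone (−0.82, adjusted p = 0.179). In NPCs, Smc1b (−1.70 ± 0.39) and Dppa3 (−1.46 ± 0.29) were lower and Slc25a31 (1.21 ± 0.34) was higher. Slc25a31 lost the call in 10 of 12 such fits and Nanos3 in NPCs in 9 of 12. Smc1b was at −2.45 against WT1 alone and −0.94 against WT2 alone (adjusted p = 0.0102 and 0.263), and Dppa3 at −2.03 and −0.89 (adjusted p = 0.00812 and 0.141). With pKO2 alone both calls were lost (−0.90 and −0.80, adjusted p = 0.313 and 0.224). Slc25a31 was at 0.25 against WT1 alone (adjusted p = 0.776) and at 2.17 against WT2 alone (adjusted p = 0.0158), and with pKO1 alone at 0.54 (adjusted p = 0.454).

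**Figure D4:**
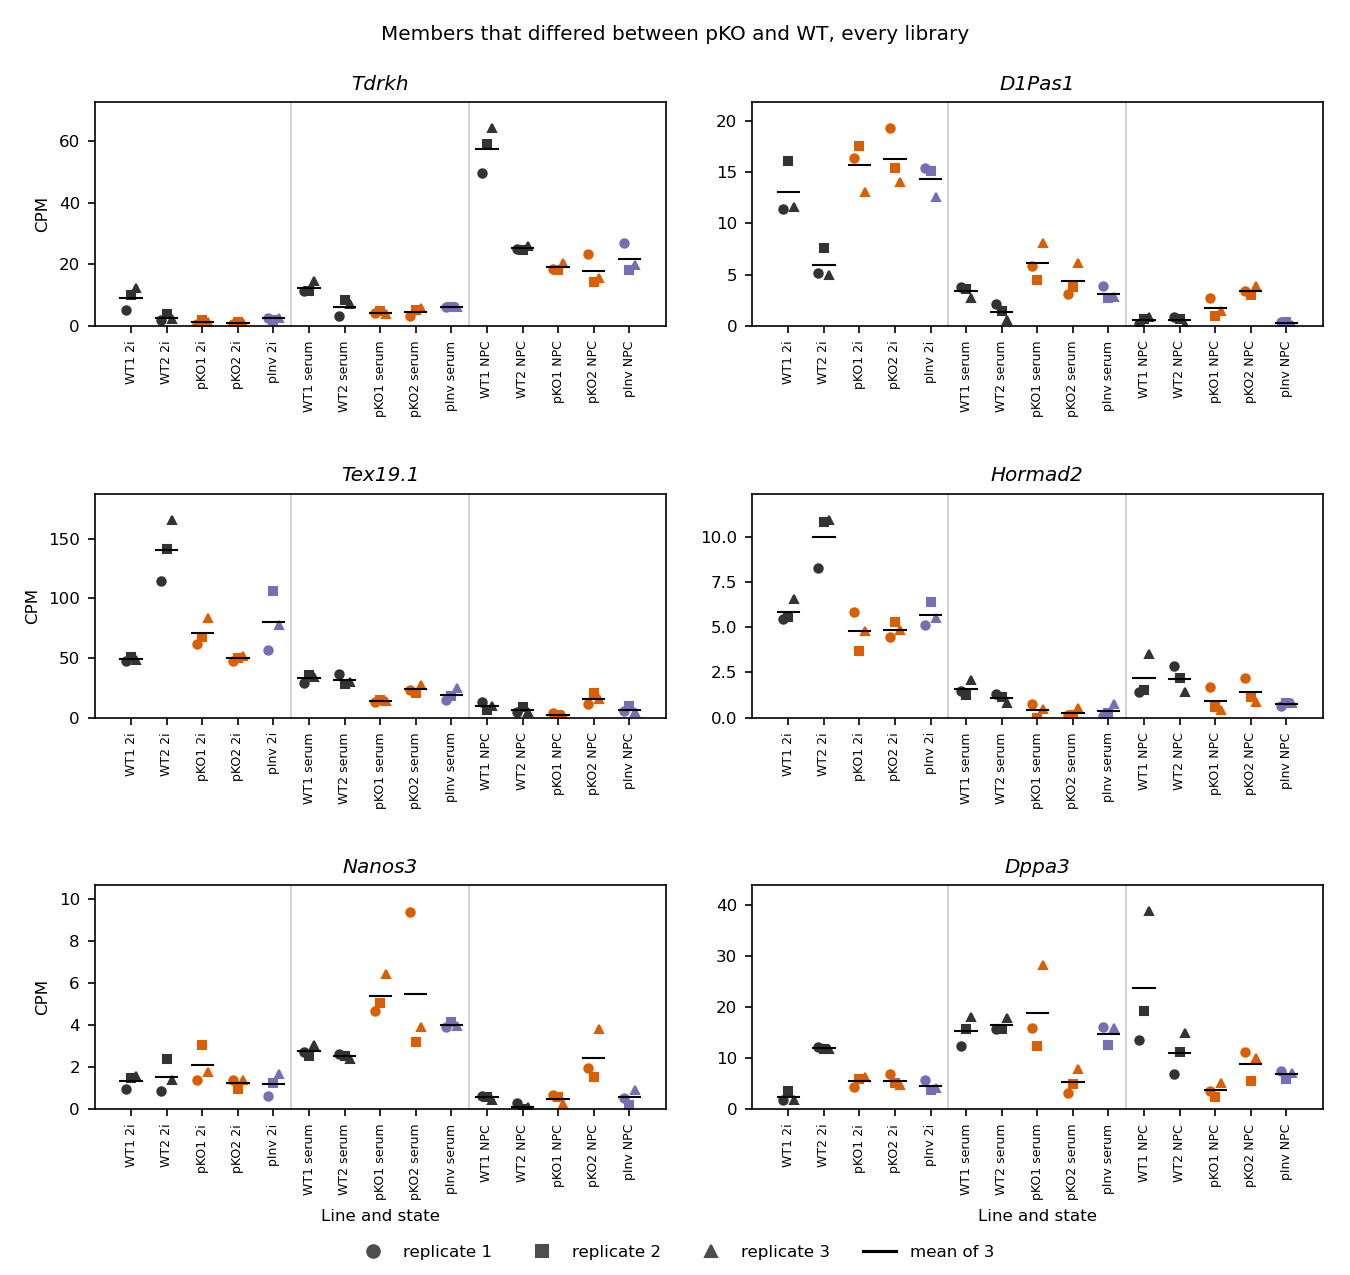
CPM of 6 members that differed between pKO and WT, in every library of the 5 genotype lines in 2i, serum and NPCs, with a symbol for the replicate number and a bar for the mean of 3. WT1 is the highest line for Tdrkh in each state, and for Tex19.1 and Dppa3 in 2i WT2 lies above the other lines.

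Other markers differed between pKO and WT as well. Of 5 markers of 2-cell-like cells, 4 were higher in pKO in serum, where they summed to 23.6 to 124 CPM against 4.97 to 14.3 in WT, 4 of 4 were higher in NPCs and 2 of 4 were lower in 2i. Feeder markers in serum ranged from 962 to 5220 CPM in pKO against 1183 to 2477 in WT. Their part in the members' differences was not tested. Of the other pathway genes, 1 or 2 in each state passed outside the repressors (for example Meioc in 2i, at −0.86 ± 0.15, and Gpat2 in serum, at −1.18 ± 0.29). Dnmt3l was lower in 2i (−1.33 ± 0.14), and higher in serum (0.46 ± 0.10) and in NPCs (0.92 ± 0.25). In NPCs its log2 difference of pKO2 from pKO1 was 3.29, so the NPC value is a mean of unlike lines. The difference of the pKO effect between serum and 2i passed for Dnmt3l (1.81 ± 0.26, adjusted p = 7.48e-05). For the members, edgeR called 0 of 37 for serum minus 2i (percent called 1.13, with 0.6 up and 0.529 down) and 0 of 37 for NPCs minus serum (4.02, with 1.97 and 2.05). At an unadjusted p under 0.05 these were 3 and 7, with no count over all genes at that cut. DESeq2 called 1 and 1 members, where it called 402 and 981 of 15679 genes.

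Inversion of the promoter gave no member past the threshold in edgeR, with 0 of 34 in 2i (percent called 0.911, with 0.567 higher and 0.344 lower), 0 of 30 in serum (0.0563, with 0.00704 and 0.0493) and 0 of 31 in NPCs (0.0138, with 0 and 0.0138). At an unadjusted p under 0.05 there were 8, 4 and 7, a cut at which all genes were not counted. DESeq2 called 1, 1 and 3 members, where it called 404 of 13938, 45 of 14197 and 55 of 14511 genes. With the replicate block in 2i 7 passed, where percent called was 5.67: Piwil2 (0.64), D1Pas1 (0.70) and Dazl (0.47) were higher, and Tdrkh (−1.02), Smc1b (−0.57), Dmc1 (−0.87) and Stra8 (−0.90) were lower. The pInv and pKO comparisons share their WT libraries, so values common to both are not independent. In 2i Dmc1 was at 5.38, 4.07 and 4.66 CPM in pInv, below the 6 WT libraries (6.90 to 12.6), and at 3.62 to 9.08 in pKO.

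Lines of 1 genotype also differed from each other. Between WT2 and WT1 in 2i, 7 of 34 members passed (5 higher, 2 lower), or 20.6%. Over all genes percent called was 18 (9.21 higher and 8.77 lower), near the members' share. The count of 7 was as high as in any pKO comparison, but the shares over all genes were unlike. In pKO 17.6, 23.3 and 19.4% of members passed in 2i, serum and NPCs, against 9.06, 5.95 and 8.05% of all genes. Between WT2 and WT1 the shares were 3.33 against 0.528% in serum and 3.23 against 0.103% in NPCs (1 member each). Between pKO2 and pKO1 they were 0 against 0.574% in 2i, 3.33 against 0.197% in serum and 32.3 against 2.93% in NPCs. An excess over the share of all genes was thus not particular to the knockout. Dppa3 was higher in WT2 by 2.28 ± 0.26 (adjusted p = 7.2e-05), Tex19.1 by 1.5 ± 0.17, Tdrd5 by 1.33 ± 0.30, Dazl by 1.20 ± 0.25 and Hormad2 by 0.76 ± 0.19, and Tdrkh (−1.82 ± 0.36) and D1Pas1 (−1.15 ± 0.21) were lower. With the replicate block 18 passed, where percent called was 29.7. Dppa3 in 2i was higher in pKO against WT1 alone (1.22, adjusted p = 0.0114) and lower against WT2 alone (−1.06, adjusted p = 0.00242). The 2-cell-like markers Zscan4c, Zscan4d, Zscan4f and Usp17la were also higher in WT2 in 2i, by 1.85 to 2.33, and their part was not tested. In serum only Smc1b passed between these lines (−2.56 ± 0.52, where percent called was 0.528, with 0.134 higher and 0.394 lower), with 1.54, 1.90 and 3.03 CPM in WT1 and 0.437, 0.358 and 0.248 in WT2, a call lost in each of 6 fits without 1 library. In NPCs only Tdrkh passed (−1.22 ± 0.21, where percent called was 0.103, with 0.00689 higher and 0.0965 lower), and 5 of 6 such fits lost it.

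As NPCs the pKO lines differed in more members than in 2i or serum. There 10 of 31 members passed between pKO2 and pKO1, 9 higher and 1 lower in pKO2, where percent called was 2.93 (2.17 upwards and 0.758 downwards), and the median log2 difference was 1.34 against 0.00 for all genes. In CPM, 21 members had all pKO2 libraries above all pKO1 libraries, 1 had them below and 9 overlapped. How many of all genes separated so was not computed, so these counts have no background. Stra8 lay at 28.2, 4.97 and 18.4 CPM in pKO2 and at 0.501, 0 and 0 in pKO1 (6 counts in all), with a fitted log2 difference of 6.63 ± 1.10 that rests on those few counts (adjusted p = 0.00254). Mael lay at 47.3, 32.2 and 41.0 CPM in pKO2 and 5.76, 8.40 and 11 in pKO1, with WT libraries between, at 9.47 to 26.8, and differed by 2.28 ± 0.28 (adjusted p = 0.000246). Rec8 had 18, 15.3 and 32.1 CPM against 4.51, 3.11 and 5.44, and WT had 8.07 to 17.2 (2.36 ± 0.32, adjusted p = 0.000761).

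Against the same WT libraries, Mael and Rec8 differed in opposite directions in the pKO lines. Mael changed by −0.86 in pKO1 (adjusted p = 0.0469) and by 1.42 in pKO2 (adjusted p = 0.00108), and Rec8 by −1.43 (adjusted p = 0.0107) and 0.93 (adjusted p = 0.0449). Tex19.1 (2.65 ± 0.40), Dazl (2.56 ± 0.65), Piwil2 (2.32 ± 0.59), a PIWI protein of fetal germ cells, Tdrd12 (1.99 ± 0.36), Hormad1 (3.11 ± 0.80) and Stag3 (1.19 ± 0.30) were also higher in pKO2. Tdrd7, a Tudor-domain protein of nuage, was lower (−1.46 ± 0.34). Piwil2, Tdrd7 and Stag3 lost the call in 5 of 6 fits without 1 library and Hormad1 and Dazl in all 6. Of the other pathway genes, 4 of 7 piRNA, 3 of 15 meiosis and 4 of 8 germ cell genes were higher and 0 lower, with Sohlh2, a germ cell transcription factor, at 3.06 ± 0.35 and Dnmt3l, among the repressors, at 3.29 ± 0.38.

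Markers moved with this difference. Of 6 stem cell markers 4 were higher in pKO2 NPCs, led by Esrrb (3.25 ± 0.48), and the 6 summed to 727 to 936 CPM against 535 to 632 in pKO1. The 2-cell-like markers summed to 33.8 to 140 CPM against 8.88 to 27.1, with 2 of 4 passing, and neural markers to 113 to 256 against 197 to 425, with 0 of 6 passing. Their part in the members' difference was not tested. In stem cells the pKO lines were closer. In 2i, 0 of 34 members passed (percent called 0.574, with 0.0646 higher and 0.509 lower). At an unadjusted p under 0.05 there were 5, a cut at which all genes were not counted. DESeq2 called 0, where it called 253 of 13938 genes. With the replicate block Mael alone passed, at 1.22, where percent called was 4.2. In serum 1 of 30 passed (percent called 0.197, with 0.176 higher and 0.0211 lower). That 1 was Dppa3, at 15.9, 12.5 and 28.3 CPM in pKO1 and 3.14, 4.93 and 7.88 in pKO2 (−1.79 ± 0.32, adjusted p = 0.0321), and 4 of 6 fits without 1 library lost it.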

How the data were processed

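PolyA RNA was sequenced from 63 libraries with the Lexogen SENSE kit and quantified with RSEM against mm9, per the labels' protocols and the submitters' processing notes; versions and the strand setting are not given in the sources used here. The authors deposited 1 RSEM table per library with an expected count and a TPM for each of 24990 rows. Row identifiers were matched to symbols with RefSeq gene tables (GRCm38.p6), 23447 by gene id and 1139 by accession, and the promoters come from the same source. The 28 rows left without a name held 0.674 to 6.05% of counts and stayed in the tests under their own identifiers. Another 375 rows were deposited under joined identifiers of several genes and were kept as they were. Of 56 other pathway genes 55 were found. Expected counts were rounded to whole numbers. CPM is the expected count scaled to the total of its library.

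Tests used edgeR 4.0.16 (quasi-likelihood, TMM scaling, filterByExpr, 1 mean per group) in R 4.3.3, with Benjamini-Hochberg adjustment over all genes tested and a threshold of 0.05. The SE is the fold change divided by the root of F. Each state of the genotype series was fitted with 15 libraries, the knockdown with 9 per state, the change of state with 18 and the effects between states with 45. DESeq2 1.42.0 and the other alternatives are described in the closing section. The procedure was tested on simulated data. No pair of libraries in a group agreed within sampling noise, the lowest chi-square per gene being 5.57. Replicate numbers recur across groups. Their deviations from group means correlated above 0.1 in every pair in 2i (lowest 0.247), in the knockdown in serum (0.305) and in NPCs (0.25). Numbers were taken as pairs there, from the data and not the labels. For genotype libraries in serum 29 of 30 pairs did so (lowest 0.097, median 0.335, against −0.196 for other numbers). By that rule numbers were not taken as pairs in serum, though nearly all pairs met it. The text may name any member past the threshold, and at most 4 other pathway genes per list by smallest p. The members and lists were chosen with earlier results of these data known. A count of reads without molecular identifiers carries counting error beyond that of independent molecules.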

Additional observations from a re-analysis of the deposited data

Results flagged for a closer look

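Levels differed between pKO2 and pKO1 for 11 results, by edgeR's quasi-likelihood test, given here as log2 differences of pKO2 from pKO1. Both lines face the same WT libraries, which drop out of this test. Each result is therefore a difference between lines of 1 genotype. The part of the knockout in it was not tested. In serum Dppa3 differed by −1.79. In NPCs Stra8 differed by 6.63, Hormad1 by 3.11, Tex19.1 by 2.65, Dazl by 2.56, Rec8 by 2.36, Piwil2 by 2.32, Mael by 2.28, Tdrd12 by 1.99, Stag3 by 1.19 and Tdrd7 by −1.46. In NPCs, Tdrd12, Mael, Rec8, Stra8 and Tex19.1 passed in all 6 fits that left out 1 pKO library.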

How the results depend on the processing

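Counts of members called that moved by more than 1.5 times were as follows, with the count over all genes in the same fit in brackets. With the replicate block, pKO against WT gave 11 (2912) in 2i and 11 (2887) in serum, and pInv in 2i gave 7 (790). In that setting WT2 against WT1 gave 18 (4138) in 2i and 5 (351) in serum. It gave 1 (585) in 2i and 3 (691) in serum for pKO2 against pKO1, and 1 (826) and 1 (1600) for the effects between states. The replicate numbers met the rule for pairs in 2i and in the knockdown. In serum 29 of 30 pairs of genotype libraries met it, the lowest being 0.097. With WT1 alone, pKO gave 3 (492) in 2i, 2 (168) in serum and 3 (363) in NPCs, and pInv 4 (824), 1 (58) and 3 (38). With WT2 alone, pInv in 2i gave 5 (543), pKO in NPCs 2 (766), and the difference between serum and 2i 1 (338). With pKO1 alone, pKO in 2i gave 2 (119) and the difference between NPCs and serum 8 (1128). With pKO2 alone, pKO in serum gave 2 (415) and that difference 3 (196). With lines as replicates, pKO gave 0 in each state (1 in 2i, 15 in serum and 0 in NPCs). DESeq2 gave 1 (404), 1 (45) and 3 (55) for pInv in 2i, serum and NPCs. For WT2 against WT1 it gave 3 (256) in serum and 2 (168) in NPCs. It gave 2 (210) for pKO2 against pKO1 in serum, and 1 (402) and 1 (981) for the effects between states. With no filter on low counts, WT2 against WT1 in serum gave 0 (55). Leaving out 1 library gave 3 to 7 (704 to 1764) for pKO in 2i and 2 to 8 (307 to 1370) in serum. The 2 in serum came without WT1 replicate 3. In NPCs pKO gave 3 to 5 (525 to 1921). For pInv it gave 0 to 1 (7 to 176) in 2i. In serum and NPCs pInv gave 0 to 0 (2 to 10 and 1 to 6). For WT2 against WT1 it gave 7 to 12 (1656 to 2771) in 2i. In serum these lines gave 0 to 0 (13 to 33) and in NPCs 0 to 1 (1 to 33). For pKO2 against pKO1 it gave 0 to 0 (8 to 15) in 2i and 0 to 2 (5 to 222) in serum. In NPCs these lines gave 5 to 7 (177 to 313). Both effects between states gave 0 to 1 (91 to 460 and 292 to 1088), and both knockdowns 0 to 0 (0 to 1). WT serum against 2i gave 24 to 28 (8348 to 8892). WT NPCs against serum gave 16 to 20 (9537 to 10653) and Ctrl NPCs against serum 9 to 14 (6704 to 7483). Of 1498 values of called members, 1274 kept direction and call, 223 lost the call and 1 reversed. That total pools all comparisons, and calls between states were lost less often than those of pKO against WT. The value that reversed was Tex19.1 for pKO in 2i against WT1 alone, at 0.31. The cause was not tested. Members under about 1 CPM rest on few counts.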
